A study of Mus musculus with 18 samples.

Results

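The genes described here are 8 loci of the Th17 and regulatory T cell (Treg) programmes: Rora, Il17a, Il17f, Il23r, Ccr6, Ahr, Foxp3 and Ikzf2. They were read from a deposited table of accessible regions in mouse CD4 T cells. A region was taken as a gene's own when the table names that gene as overlapping it or as lying to its left or right. By this rule 56 of the 65983 regions named 1 of the 8 genes, and each of the 56 named a single gene of the set. Regions were found at 7 of the 8 genes, and no region named Il17a. For scale, 71.3% of RefSeq protein-coding genes were named in a region.

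The assay was ATAC-seq, which marks open chromatin by where a transposase can insert sequencing adapters. Naive CD4 T cells were activated with beads carrying antibodies to CD3 and CD28 and grown in a Th1 medium with IL2, IL12 and an antibody that neutralises IL4. The 18 samples formed 6 groups of 3, which were Id3 knockout (Id3-KO) and wild type (WT) cells labelled Th1 at 24 h, and Id3-KO and WT cells labelled Tcmp or Teff at 72 h. The labels do not spell out Tcmp and Teff, and they give neither the age of the mice, the kind of Id3 allele, nor the animal behind each sample. Id3 is an inhibitor of E proteins, the basic helix-loop-helix factors that bind the DNA letters CANNTG (the E-box).

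The table holds the same regions under each of 6 contrasts and no value for a single sample, so library depth is unknown and no measure below has a replicate error. A listed region shows that windows there were tested over the whole experiment, not which of the 6 groups had the open DNA. The fold changes and p-values of the table are not given for these loci. In all 6 contrasts every one of the 65983 regions had its first window as representative, and the p-value per window fell in 0 steps down the table, so that these values followed the row order and could not be tied to a locus. What can be read for each locus is the number of regions, their position, class, width, number of windows and distance to exons.

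Th17 cells produce the cytokines IL-17A and IL-17F, are maintained by IL-23, and depend on the ROR family of nuclear receptors. Treg cells depend on the forkhead factor Foxp3 and restrain immune responses. IL-12 drives naive CD4 T cells to the Th1 fate instead, and the labels name no TGF-β or IL-6, which direct Treg and Th17 differentiation, in the medium. The table named all 7 CD4 T cell markers examined, each with a promoter region (Cd3d, Cd3e, Cd3g, Cd4, Cd28, Cd5 and Cd2). Of all 26755 genes named, 76.0% had a promoter region. Of 5 myeloid markers, 4 (Csf1r, Lyz2, Adgre1 and Cd14) had no region, and 1 had 6 regions, 1 of them at a promoter. Of RefSeq protein-coding genes, 28.7% were not named in any region. Regions named 3 of 5 B cell markers, both CD8 T cell markers, 3 of 3 erythroid, 3 of 3 endothelial and 2 of 3 epithelial and liver markers, so a region at a gene does not by itself set a cell type apart.

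The DNA before the start sites of 6 of the 8 genes was taken from RefSeq (build GRCm38.p6, 250 bases before to 50 after each start, matched by symbol). Ahr and Ikzf2 had no entry. The table of regions uses build GRCm39, so the start sites were not placed inside regions. The sequences are shown 5′ to 3′ on the strand of the gene because E-boxes are the sites of the factors that Id3 restrains, with every CANNTG in capitals. The first pair is the neighbouring cytokine genes Il17a (no region) and Il17f (3 regions). Then come Il23r (no promoter region) and the annotated starts of Ccr6 and Foxp3. Both of these last genes had promoter regions, which need not lie at the printed starts.
Il17a: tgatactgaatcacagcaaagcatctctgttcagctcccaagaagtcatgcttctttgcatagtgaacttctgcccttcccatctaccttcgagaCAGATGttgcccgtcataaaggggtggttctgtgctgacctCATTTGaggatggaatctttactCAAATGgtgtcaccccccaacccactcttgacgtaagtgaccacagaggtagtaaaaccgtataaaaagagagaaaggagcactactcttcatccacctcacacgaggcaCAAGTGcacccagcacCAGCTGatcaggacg
Il17f: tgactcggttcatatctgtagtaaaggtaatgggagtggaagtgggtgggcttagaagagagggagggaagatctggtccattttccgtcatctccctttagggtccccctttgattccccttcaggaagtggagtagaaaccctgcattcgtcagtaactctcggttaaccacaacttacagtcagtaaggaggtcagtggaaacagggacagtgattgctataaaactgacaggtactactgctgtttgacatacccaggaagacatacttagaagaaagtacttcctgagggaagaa
Il23r: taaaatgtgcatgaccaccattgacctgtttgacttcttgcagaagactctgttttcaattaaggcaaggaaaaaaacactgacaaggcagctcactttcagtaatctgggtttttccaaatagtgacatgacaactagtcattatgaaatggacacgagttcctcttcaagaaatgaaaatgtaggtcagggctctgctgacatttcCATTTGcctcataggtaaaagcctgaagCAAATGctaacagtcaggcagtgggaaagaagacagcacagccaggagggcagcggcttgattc
Ccr6, upstream start: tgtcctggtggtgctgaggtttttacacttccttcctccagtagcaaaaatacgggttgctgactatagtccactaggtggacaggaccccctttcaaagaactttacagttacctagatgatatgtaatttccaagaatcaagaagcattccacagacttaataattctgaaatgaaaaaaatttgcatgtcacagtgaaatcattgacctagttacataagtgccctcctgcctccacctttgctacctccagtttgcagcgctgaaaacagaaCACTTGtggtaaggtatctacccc
Ccr6, downstream start: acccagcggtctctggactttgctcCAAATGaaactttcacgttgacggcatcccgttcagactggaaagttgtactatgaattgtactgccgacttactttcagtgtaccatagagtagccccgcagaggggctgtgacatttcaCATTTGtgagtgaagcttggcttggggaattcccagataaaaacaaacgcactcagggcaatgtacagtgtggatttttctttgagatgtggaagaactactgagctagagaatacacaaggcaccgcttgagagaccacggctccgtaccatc
Foxp3, upstream start: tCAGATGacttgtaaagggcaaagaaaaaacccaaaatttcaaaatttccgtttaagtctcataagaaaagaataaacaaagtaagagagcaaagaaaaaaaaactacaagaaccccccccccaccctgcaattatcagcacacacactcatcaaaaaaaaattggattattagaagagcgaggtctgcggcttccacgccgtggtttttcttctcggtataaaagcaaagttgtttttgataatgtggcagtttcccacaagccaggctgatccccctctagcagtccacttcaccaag
Foxp3, downstream start: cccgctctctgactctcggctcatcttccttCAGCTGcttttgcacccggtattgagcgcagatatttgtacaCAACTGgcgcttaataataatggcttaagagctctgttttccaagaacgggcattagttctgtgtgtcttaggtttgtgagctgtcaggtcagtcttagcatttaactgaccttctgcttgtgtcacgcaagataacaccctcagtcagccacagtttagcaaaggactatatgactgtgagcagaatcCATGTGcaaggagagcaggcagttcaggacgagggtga

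The Il17a sequence held 5 E-boxes and the Il17f sequence 0. Among the 32851 RefSeq promoters of the same length, 2.10% held 5 or more, 27.7% held none, and the median was 1. Il23r held 2, the Ccr6 starts 1 and 2, the Foxp3 starts 1 and 3, and the Rora start, not printed, 0. CANNTG reads the same on both strands and was counted once. Its form CAGCTG was present once at Il17a and once at the downstream Foxp3 start (16.3% of promoters hold it), and its form CAGGTG at none of the 8 starts (20.2%).

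The other motifs were searched on both strands. The letters AGGTCA, the core bound by ROR factors, occurred once at Il17a, once at Il17f, once at the upstream Ccr6 start, and 2 times each at Il23r and the downstream Foxp3 start, against 16.3% of all promoters with at least 1. The AP-1 letters TGANTCA occurred once at Il17a (7.81% of promoters) and at no other of the 8 starts. The STAT letters TTCNNNGAA occurred 2 times at the upstream Ccr6 start and once at the downstream Foxp3 start (8.30%). The RUNX letters TGTGGT occurred once each at Il17a, Il17f and the upstream Ccr6 start (16.8%), and the AHR core GCGTG once each at Rora and the Foxp3 starts (32.4%). The forkhead letters GTAAACA (3.65%) and the T-box letters AGGTGTGA (1.28%) occurred at none of the 8. A match describes the letters alone, and no binding was measured.

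The Rora start held more CpG than the other 7 starts. Il17a held 6 CpG in 300 bases, Il17f 4, Il23r 2, Ccr6 2 and 10, Foxp3 6 and 8, and Rora 28, where the median promoter held 7. Among 15182 genes whose RefSeq starts held 10 or fewer CpG, 16.6% had a promoter region in the table and 74.6% had no region at all. Among 11843 genes with more than 10 CpG, 77.4% had a promoter region and 17.6% had none. These shares rest on matching symbols between RefSeq and the table, and a gene under another name counts as having none. They are over all 27025 genes with a RefSeq promoter, with olfactory and vomeronasal receptors kept. That set is larger than the 21900 RefSeq protein-coding genes used for other shares, so the shares are not those of protein-coding genes. Il17a and Il23r were among the genes of the first group without a promoter region, and Il17f, Ccr6 and Foxp3 among those of the same group that had one.

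Regions carried the letters P (promoter), E (exon) and I (intron), alone or together, as the authors assigned them. A region with P was classed as promoter here, one with E and no P as exon, one with I alone as intron, and one named only to the left or right as flanking. In regions with P alone and exons only downstream, the distance to the exon reached 3000 bp, and upstream flanking regions began at 3001 bp. In such regions P thus reached 3000 bp upstream. Not every region so close to a downstream exon carried P, as an intron region of Ccr6 lay 334 bp from one. The longest distance in the table was 5000 bp. The 8 genes had 14 promoter regions, 4 exon, 36 intron and 2 flanking regions.

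**Figure D1:**
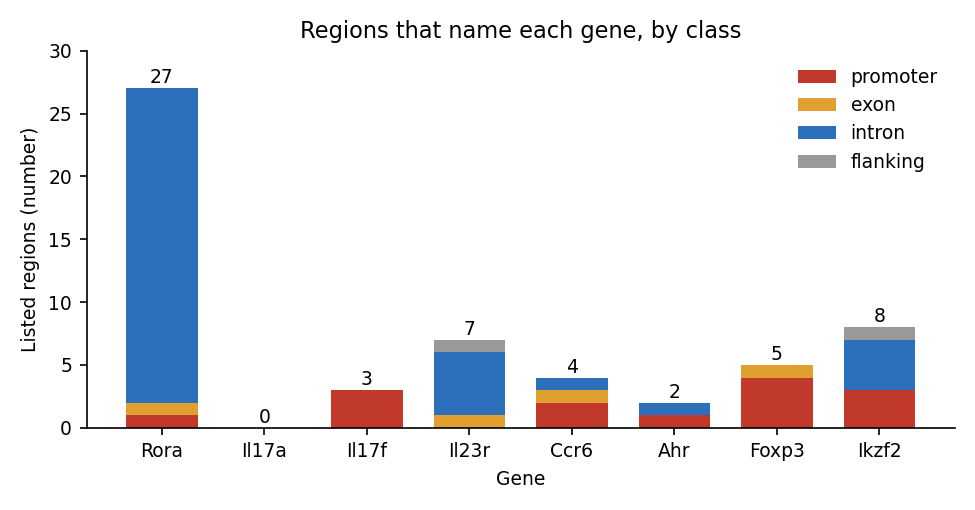
Number of listed regions (vertical axis) that name each of the 8 genes (horizontal axis), stacked by class, with the total above each bar. Rora had 27 regions, 25 of them intronic, Il17a had 0, and Il17f had promoter regions alone.

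The share of promoter regions among the 56 was 25.0% (95% Wilson interval 15.5 to 37.7, counting error only), beside 37.0% of all 76685 pairs of a region and a gene it names. Intron regions made up 64.3% (51.2 to 75.5) beside 34.2%, and flanking regions 3.57% (0.985 to 12.1) beside 21.7%. The promoter and intron shares were set by Rora: among the 29 regions of the other genes, 44.8% were promoter and 37.9% intron regions. Flanking regions were 6.90% of those 29. No test of these shares was made, since regions of 1 gene are not independent of each other.

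Regions per gene ranged from 0 to 27, with a median of 4.5 over the 8 genes. Over the 26755 genes named in the table the median was 2, the 90th percentile 5 and the 99th percentile 17, counting named genes only. Rora was among the 0.250% of genes with 27 or more regions (67 genes). Ikzf2, with 8, was among 5.50%, Il23r, with 7, among 7.20%, Foxp3, with 5, among 14.2%, and Ccr6, with 4, among 22.1%. Il17f, with 3, and Ahr, with 2, were near the middle of the distribution, where 37.5% and 62.6% of genes had as many or more. Longer genes can hold more regions, and gene length was not adjusted for.

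**Figure D2:**
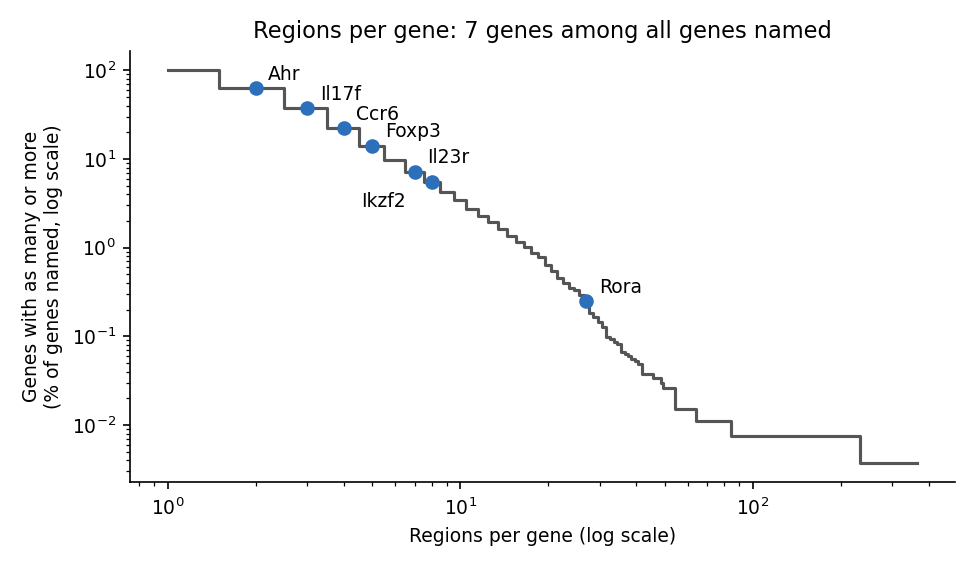
Share of the 26755 named genes (vertical axis, %, log scale) with at least the number of regions on the horizontal axis (log scale). Blue points mark 7 genes, from Ahr with 2 regions to Rora with 27; Il17a, with 0, cannot be drawn on this axis.

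Il17a, the founding IL-17 cytokine of Th17 cells, was named in no region, whereas Il17f, its close relative, had 3. Of 21900 RefSeq protein-coding genes, 28.7% were not named under their symbol or an older symbol, and 24.0% after olfactory and vomeronasal receptor symbols were left out. Whether the authors' annotation held Il17a cannot be seen in the table. RefSeq orders the genes here as Pkhd1, Il17a, Il17f and Mcm3 along chromosome 1, and Pkhd1 was not named either. On the lower side of Il17f the table lists 5 regions that name no gene, and so lie over 5000 bp from any exon of the authors' annotation. They are at chromosome 1, 20810551 to 20811250, 20814001 to 20814650, 20824551 to 20825150, 20829901 to 20830500 and 20836701 to 20837300 (GRCm39). These unnamed regions were 600 to 700 bp wide with 7 to 9 windows each, as many as or more than the median region of the table (550 bp and 6 windows). Below them the next listed region, which carries P and E for Jph1, was 3642 kb away.

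Il17f had promoter regions alone, on the minus strand of chromosome 1. The most 5′ one (20861601 to 20862150, 6 windows) lay 760 bp from an exon with no exon further 5′ within reach. The next (20857151 to 20857650, 5 windows) carried P and I and lay 53 bp from an exon on one side and 2268 bp on the other. The last (20851201 to 20851500) was a single window of 300 bp, also with P and I, 1423 and 2897 bp from exons. The letter P was thus given at places 10.65 kb apart. The nearest listed regions on either side were the unnamed one 13.9 kb away and, 28.05 kb away, the promoter region of Mcm3, a subunit of the replicative helicase.

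Rora, which encodes the nuclear receptor RORα, had more regions than any other gene of the set (27 of 56). They spread over 497.7 kb of the plus strand of chromosome 9, from 68791701 to 69289400. Intron regions numbered 25, and for 22 of the 27 regions no exon of Rora other than one they overlapped lay within 5000 bp. The median gap between neighbours was 9.18 kb, close to the 8.90 kb between neighbouring regions over the whole table. The lowest gap was 1300 bp and the highest 62.4 kb.

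The only promoter region of Rora lay inside the locus. It spans 69196851 to 69197400, carries P and E, holds 6 windows, and begins 405.15 kb downstream of the first region. Before it came 16 intron regions and after it 10 regions. The first region, 68791701 to 68792350, was already intronic, so the most 5′ start of Rora had no listed region. Upstream of it the table lists nothing for 536.5 kb, a gap reached by 1.13% of gaps between neighbouring regions. The RefSeq start of Rora, with its 28 CpG, is of the group in which 77.4% of genes had a promoter region. That share counts a promoter region anywhere in a gene, so Rora is among the genes that had one. It is not a share of starts with a region.

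Rora's intron regions were unevenly spaced. A group of 5 regions lay between 68930501 and 68944000, with 9, 6, 3, 10 and 5 windows. It held the widest region of the gene, 68941451 to 68942200, at 750 bp and 10 windows. Another group, of 3 regions from 68973001 to 68981050, had 8, 6 and 7 windows. Past the internal promoter, 5 intron regions lay between 69205201 and 69243900 with 6, 7, 7, 5 and 8 windows, and 4 more intron regions between 69252851 and 69275850 with 1, 5, 6 and 5. The last region, 69289101 to 69289400, was a single window over an exon. Of the 27 regions, 2 also overlapped Gm15511, a predicted gene on the opposite strand. In the map of the loci these groups show as closely spaced lines on both sides of the internal promoter.

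**Figure D3:**
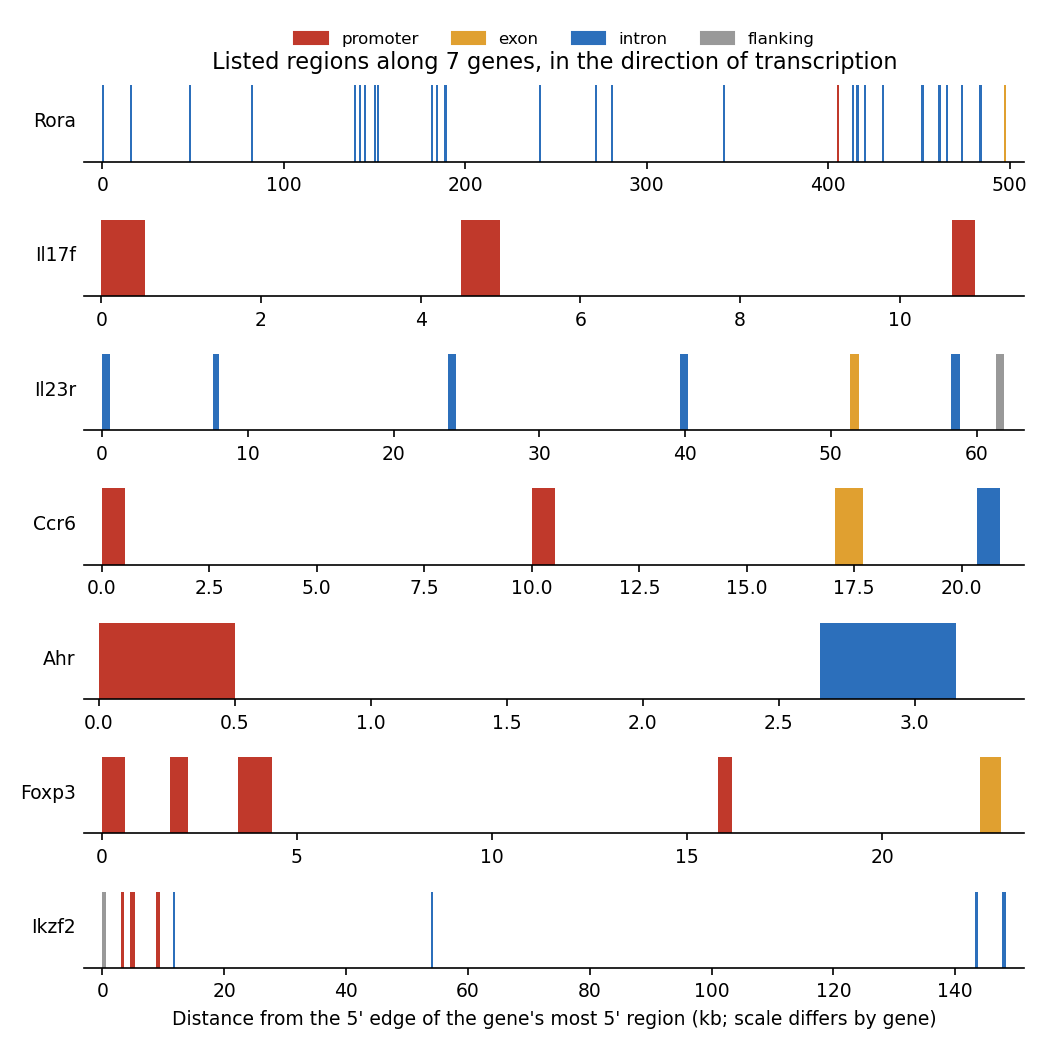
Regions of 7 genes along the direction of transcription (horizontal axis, kb from the 5′ edge of the gene's most 5′ region, with a scale for each gene), coloured by class; each bar is a region, and bars too narrow to see are drawn wider than their region. The only promoter region of Rora lies 405.15 kb in, those of Ikzf2 between 3.0 and 8.9 kb, and Il23r has none.

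Il23r, the receptor chain specific for IL-23, had 7 regions and none at a promoter. Among the 1926 genes with 7 or more regions, 105 (5.45%) likewise had no promoter region. On the minus strand of chromosome 6 the intron regions, from 5′ to 3′, were 67460001 to 67460550 (6 windows), 67452501 to 67452950 (4), 67436251 to 67436850 (7), 67420351 to 67420900 (6) and 67401701 to 67402300 (7). An exon region with 8 windows lay at 67408601 to 67409250, and a flanking region with 6 windows, 67398651 to 67399200, lay 716 bp past the 3′ end. The regions were thus of ordinary size and spread along 61.9 kb of the gene. On its 5′ side the nearest other region, 27.05 kb from the first, named no gene. Il12rb2, the IL-12 receptor chain gene next to it in RefSeq and part of the Th1 programme, had 12 regions, 4 of them at a promoter.

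Ccr6, the chemokine receptor of Th17 cells, had promoter regions at 2 places, 10.0 kb apart, on the plus strand of chromosome 17. The upstream one (8453351 to 8453900, 6 windows) carried P alone, 975 bp from the next exon. The downstream one (8463351 to 8463900, 6 windows) carried P and E. RefSeq lists 2 starts for Ccr6, which were not placed in these regions. An exon region (8470401 to 8471050, 8 windows) lay 6 bp from another exon, and an intron region (8473701 to 8474250, 6 windows) lay 334 bp from the next. Both of these point to the same exon edge at 8474584, as computed from their distances. Listed regions that named no gene lay 7.3 kb below and 9.2 kb above the Ccr6 regions.

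Ahr, the ligand-activated receptor that supports IL-22 production in Th17 cells, had the fewest regions of the 7 genes. A region with P and E (chromosome 12, minus strand, 35584751 to 35585250) and an intron region 2.65 kb downstream (35582101 to 35582600) each held 5 windows over 500 bp. Both also overlapped a plus-strand gene that the table gives by Ensembl identifier alone. Accessibility cannot be assigned to either of the overlapping genes. Below Ahr's regions the next one was 50.95 kb away, and above them 17.75 kb.

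Foxp3, the factor that defines Treg cells, had 5 regions, 4 of them classed as promoter, on the plus strand of chromosome X. Genes with 4 or more promoter regions made up 1.77% of those named. The first region (7436901 to 7437500, 7 windows) and the second (7438651 to 7439100, 4 windows) lay 2383 and 783 bp upstream of the same exon edge, 7439883. The third (7440401 to 7441250) carried P and I and was the widest of all 56 at 850 bp. It held 9 windows, and 3 window positions inside it were not listed. These 3 regions also overlapped the noncoding RNA gene Flicr and Ppp1r3f, a gene on the opposite strand, so they are not Foxp3's alone. All 5 regions of Foxp3 also overlapped a minus-strand gene given by Ensembl identifier alone. The RefSeq starts of Foxp3 were not placed in any of its regions. Just beyond the reach of Foxp3, 2.7 kb below its first region, the next listed region overlapped Ppp1r3f and did not name Foxp3.

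Further into the Foxp3 gene 2 regions were listed. After the third region the table lists nothing for 11.45 kb. The fourth region (7452701 to 7453050) carried P and E and held only 2 windows over 350 bp. The fifth (7459401 to 7459950, 6 windows) lay over an exon, beside Ccdc22, the next gene. No Foxp3 region carried I without P.

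Ikzf2, which encodes the Ikaros family factor Helios found in many Treg cells, had 8 regions in separate clusters on the minus strand of chromosome 1. The 5′ cluster held a flanking region (69731001 to 69731600, 7 windows), a region with P alone (69728051 to 69728600, 6 windows) and a region with P and E (69726251 to 69727000, 10 windows). The first pair lay 4597 and 1647 bp from the same exon edge, 69726404, which falls inside the region with P and E. At 10 windows and 750 bp that region equalled the largest of Rora by windows. A second region with P and E followed at 69722151 to 69722700 (6 windows), and an intron region at 69719651 to 69720050 (3 windows).

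The rest of Ikzf2 was sparse. An isolated intron region with 3 windows (69677251 to 69677700) lay 41950 bp from that intron region, and the next region was another 88950 bp away. The last pair, also intronic, lay at 69587951 to 69588300 (2 windows, 56 bp from an exon) and 69583251 to 69583900 (8 windows). The last of these also overlapped a plus-strand gene given by Ensembl identifier alone. Over their spans Ikzf2 and Rora had 5.39 and 5.42 regions per 100 kb, Il23r 11.3, Ccr6 19.1, Foxp3 21.7, Il17f 27.4 and Ahr 63.5, where the span runs from a gene's first to its last region. This span is set by the regions and not by gene length, so a few close regions give a high value. The value of Ahr rests on 2 regions over 3.15 kb and that of Il17f on 3 over 10.95 kb, so these values do not rank the genes.

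The 56 regions had a median width of 550 bp and a median of 6 windows, as did the whole table. Regions with 7 or more windows made up 32.1% of the 56 and 48.3% of all regions. Promoter regions of the set had a median of 6 windows and all promoter regions 7, and intron regions had 6 in both. Single-window regions numbered 4 of 56 (7.14%, 3.81% of all), with 3 in Rora and 1 in Il17f. Window positions were missing inside 3 of the 56 (5.36%, 2.24% of all), at Rora, Foxp3 and Ikzf2. Of the 36 intron regions, 24 (66.7%) had no other exon of their gene within 5000 bp, beside 43.7% of all intron pairs, and 21 of the 24 were in Rora. Another gene was overlapped by 10 of the 56 (17.9%), which included all 5 regions of Foxp3 and both of Ahr. The 56 include 2 flanking regions, which overlap none of the 8 genes. Of all regions 14.5% overlapped 2 or more genes, and of those over at least 1 gene 19.6% did.

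**Figure D4:**
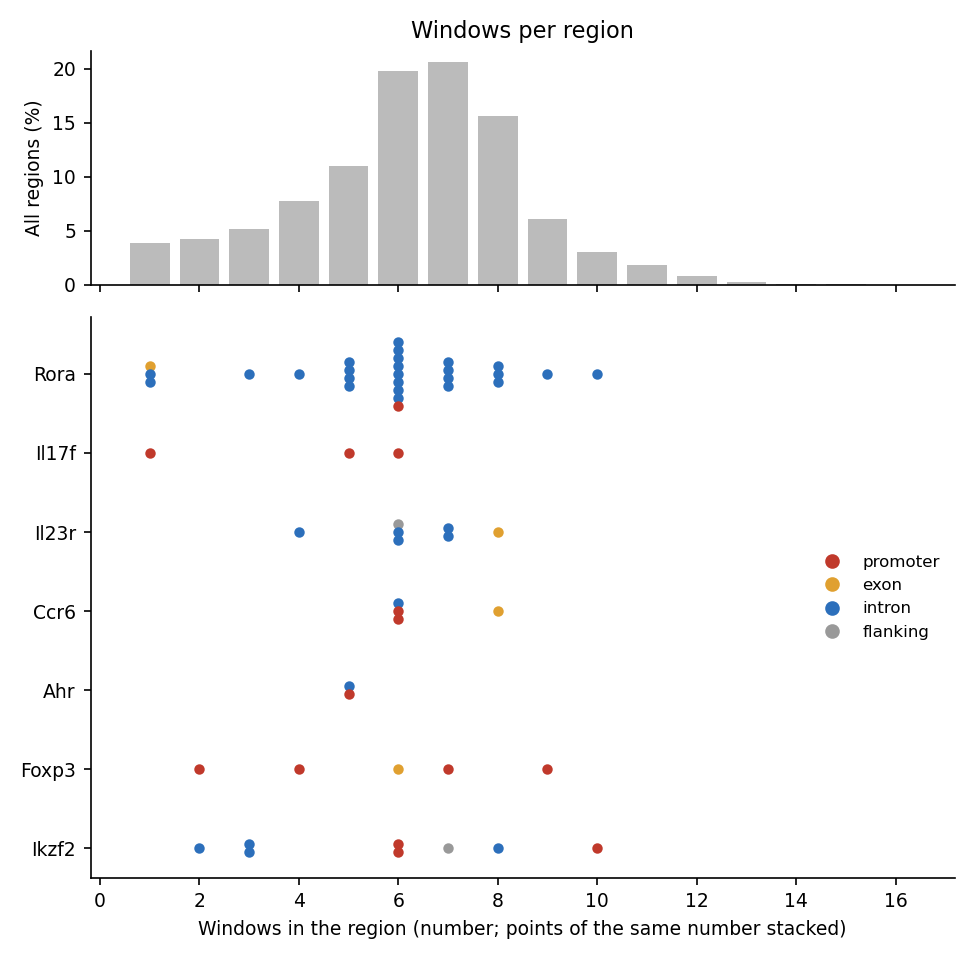
Top, share of all 65983 regions (vertical axis, %) by number of windows (horizontal axis). Bottom, each of the 56 regions as a point at its number of windows, by gene and coloured by class, with points of the same number stacked; they range from 1 to 10, and the only promoter region with a single window is at Il17f.

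Other genes of the Th17 and Treg programmes were read in the same way from lists of 16 and 19 genes. In the Th17 list 14 of 16 genes had a region and all 14 had a promoter region. For scale, 71.3% of RefSeq protein-coding genes were named, and 76.0% of all 26755 named genes had a promoter region. The exceptions, Il22 and Ccl20, are a cytokine and a chemokine of Th17 cells, and like Il17a were named in no region. Il21 had 3 regions, and Il1r1 and Batf 8 each. The Th17 list had a median of 5 regions per gene.

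In the Treg list all 19 genes had a region and a promoter region, with a median of 7 regions. Over all RefSeq protein-coding genes 71.3% were named, and the share with a promoter region over all named genes was 76.0%. Bach2, a repressor that favours Treg and memory fates, had 59, and only 4 named genes had as many or more, itself included. Il2ra, the IL-2 receptor α chain, had 9, Ctla4 12, Ikzf4, the relative of Ikzf2, 7, and Il10 5. For comparison, the 8 Th1 genes all had a region, with a median of 5.5, and 7 had a promoter region. The exception was Tbx21, which encodes T-bet and had 6 regions, none of them with P. The 6 Th2 and follicular helper genes all had a region and a promoter region, with a median of 4.5, the same as the 8 Th17 and Treg loci. Il4, Il5 and Il13, the Th2 cytokines, had 3, 2 and 4 regions, and Ifng 4, beside 0 for Il17a and 3 for Il17f. These counts have no error and were not tested against each other.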

How the data were processed

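The submitters' processing notes name Trim Galore, BWA, Picard, edgeR and build GRCm39, without versions, roles or order. The authors deposited a table of 65983 regions (409588 windows) under 6 contrasts, with no value per sample. For the filtering, merging and annotation of windows, settings are not given in the sources used. Per the file headers, each region has a log2 fold change, a p-value and an adjusted p-value. These deposited log2 fold changes and p-values were used only to check that they follow the row order. Regions, names, widths and window numbers were identical in all 6 contrasts, and rows of the first were counted.

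Symbols were matched exactly. Single-window regions are 300 bp wide and windows step by 50 bp, so a region wider than its windows fill has unlisted positions. An exon edge was computed from a region's edge and its deposited distance. Motifs were searched in RefSeq promoters (GRCm38.p6). The counting code was tested on simulated tables. Named genes are the 8 loci and listed genes; 1 listed gene is not reported here by itself. The loci and lists were chosen with earlier results of these data known. Python 3.11.15, pandas 2.3.3 and SciPy 1.17.1 were used. No test between groups was possible.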

Additional observations from a re-analysis of the deposited data

How the results depend on the processing

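The number of regions naming 1 of the 8 genes stayed between 44 and 59 when flanking regions, single-window regions, regions of fewer than 4 windows or regions under 500 bp were left out, flanking regions were limited to 1000 bp, or symbols were matched loosely. Merging neighbours within 1000 bp and reading rows of the other contrasts could not move it, since the smallest gap within a gene was 1050 bp and the regions are the same in all 6 contrasts. The median width and windows stayed at 550 bp and 6 in each of these, and were not computed for merged regions. Counts of Ikzf2 fell to 5 and of Foxp3 to 3 when regions under 500 bp were left out, and Ikzf2 also to 5 without regions of fewer than 4 windows. Loose matching raised Ahr to 5, because it takes in longer names that contain those letters. Il17a stayed at 0 in all of them. Without Rora, an alternative chosen after seeing the data, the promoter share was 44.8% in place of 25.0%. No paired analysis was possible because single samples have no values in the table, and no replicate could be left out for the same reason. Motifs in the regions themselves were not run, since no genome of build GRCm39 was used. Depth is unknown, so a gene without a region may still be accessible below the authors' filter.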

Other observations

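The stretch of 3642 kb without listed regions below the unnamed regions near Il17f was among the 35 longest of 65962 gaps between neighbouring regions. Il17a was not placed inside or outside this stretch, since its start was read in build GRCm38.p6. The 5 unnamed regions that follow the stretch, on the side of Il17f where RefSeq places Il17a, lie within 26.8 kb of each other.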
